A study of Mus musculus with 10 samples.

Results

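The 10 genes described here encode subunits of the vacuolar-type H+-ATPase (V-ATPase): Atp6v0a1, Atp6v0b, Atp6v0c and Atp6v0d1 of its membrane sector, called V0, and Atp6v1a, Atp6v1b2, Atp6v1d, Atp6v1e1, Atp6v1g1 and Atp6v1h of its cytosolic sector, called V1. They were chosen by symbol, and each gene was read from the probe set that carried its symbol alone and had the highest mean over the 10 arrays. A probe set is a group of array probes that are read together as 1 signal. By this rule 9 of the 10 genes were measured, of 18193 genes with a named probe set in all, and all 9 passed the filter on low signals described below. Atp6v0c, the main proteolipid of the membrane ring, had no probe set that carried its symbol alone and is not analysed here.

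The V-ATPase is a rotary proton pump. Its V1 sector hydrolyses ATP at the interfaces of the A and B subunits and turns a central stalk, and the V0 sector passes protons between its proteolipid ring and the a subunit. The pump acidifies lysosomes, endosomes and secretory vesicles, lysosomal hydrolases depend on that acidity, and the assembled pump also takes part in amino acid sensing by mTORC1 on the lysosome. Many of its genes belong to the lysosomal gene network that the transcription factor TFEB can drive through E-box sequences. A larger lysosomal compartment is a known feature of senescent cells, where acidic beta-galactosidase activity is used as a stain.

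Total RNA came from primary mouse B-cell lymphomas that carried the Emu-myc transgene, which drives Myc in cells of the B lineage, and lacked Suv39h1, a histone methyltransferase gene (genotype Emu-myc;Suv39h1-/-). The cells were taken from lymph nodes, transduced with a Bcl2 retrovirus, selected with puromycin and grown on NIH 3T3 fibroblasts irradiated with 20 Gy, so Bcl2, the missing Suv39h1 and the feeder layer were shared by both groups. Each of 5 lymphomas (lymphoma_5783, lymphoma_7890, lymphoma_9250, lymphoma_1032 and lymphoma_4936) was measured untreated and after 5 days with Adriamycin (ADR, doxorubicin, a DNA-damaging drug) at 0.05 µg/ml, with 1 array per lymphoma and condition. The series asks what ADR does to the transcripts of such lymphomas without Suv39h1, and no Suv39h1-proficient group was analysed here.

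Levels below are log2 array signals, and a change is the log2 difference of ADR minus untreated within a lymphoma. Levels of different probe sets are not comparable with each other, so levels are compared only within a gene. The array of lymphoma_1032 with ADR stood apart, with a median signal of 4.15 over all probe sets against 4.43 to 4.46 on the other ADR arrays and 4.44 to 4.50 on the untreated arrays. Of 10 B-cell markers with a probe set 9 passed the filter, and the mean level of the 10 lay between 6.85 and 8.63 on the untreated and between 6.67 and 9.43 on the ADR arrays, lowest in lymphoma_1032 in both. Markers of macrophages (12 of 18 passed the filter), fibroblasts (10 of 16), neutrophils (3 of 10) and T cells (5 of 7) were also measured. Their mean levels, mean changes or both, over all listed markers with a probe set, are given beside the results. In such a culture, fewer cells of a type and less RNA per cell cannot be told apart.

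The start regions of 4 measured genes are printed here because the letters CACGTG, the core of the E-box, occur in the windows of Atp6v0b, Atp6v0d1 and Atp6v1a and not in that of Atp6v1e1. Sequences are from RefSeq on GRCm38.p6, 5′ to 3′ on the strand of the gene, and positions count from the annotated transcript start. The lines for Atp6v0b, Atp6v0d1 and Atp6v1e1 run from -140 to 10. For Atp6v1a, whose listed start lies inside the outer bounds of the gene, only 30 bases around the match are shown. Capitals mark the E-box core CACGTG, the CCAAT box, which reads ATTGG on the opposite strand, and the GC box with the letters GGGCGG.
Atp6v0b, chr4:117887320-117887469, minus strand: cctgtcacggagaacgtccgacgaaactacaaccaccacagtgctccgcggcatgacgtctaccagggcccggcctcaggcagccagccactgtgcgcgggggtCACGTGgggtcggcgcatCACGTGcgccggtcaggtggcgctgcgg
Atp6v0d1, chr8:105566055-105566204, minus strand: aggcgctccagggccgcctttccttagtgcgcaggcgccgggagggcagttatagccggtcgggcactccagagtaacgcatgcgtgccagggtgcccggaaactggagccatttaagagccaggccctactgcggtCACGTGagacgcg
Atp6v1a, chr16:44139373-44139402, minus strand: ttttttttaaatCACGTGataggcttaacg
Atp6v1e1, chr6:120822689-120822838, minus strand: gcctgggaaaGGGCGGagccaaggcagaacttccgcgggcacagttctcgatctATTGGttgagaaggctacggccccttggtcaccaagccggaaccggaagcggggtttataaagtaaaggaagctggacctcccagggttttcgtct

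Windows from 250 bases before to 50 bases after a start were listed for 7 of the 10 genes, in 9 windows, 3 of them for Atp6v0c. Atp6v1b2, Atp6v1g1 and Atp6v1h had no window in the table. CACGTG was found in 3 of the 9 windows, against 7.15% of all 32851 windows, and thus in 3 of the 7 genes, against 8.09% of all 27025 genes with a window. The longer TCACGTG, read on both strands and overlapping CACGTG, is the form found in the TFEB-bound element, and it was in the same 3 windows, against 3.77% of all windows (4.29% of all genes). Atp6v0b held the match at -36 and again at -18, Atp6v0d1 at -3 and Atp6v1a at -131. CCAAT was in 2 of the 7 genes, against 41.1% of all genes, and GGGCGG in 5 of the 7, against 38.2%. By window these were 2 of 9 against 37.4% and 7 of 9 against 35.7%. A match describes the letters only, and CACGTG is also the core sequence bound by Myc with Max.

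In the arrays, the 9 measured V-ATPase genes had higher mean signals with ADR than without, by 0.15 to 0.42 on the log2 scale, but no single gene passed the test. In the paired limma fit over 11472 genes with Benjamini-Hochberg adjustment, 0 of the 9 rose and 0 fell at an adjusted p below 0.05, where 0.0% of all genes were called in either direction. Their adjusted p lay between 0.565 and 0.896. A mean change above 0 was found in 9 of 9, against 44.8% of all genes tested. The median of the 9 mean changes was 0.21, and over all genes tested it was -0.02. A higher signal in at least 4 of the 5 lymphomas was found in 8 of 9 genes, against 20.2% of all genes, and in all 5 lymphomas in 4 of 9, against 4.67%. A lower signal in all 5 was found in 0 of 9, against 4.82%. The untreated and ADR signals overlapped in each of the 9 genes, and 0.0872% of all genes were higher and 0.27% lower with ADR without overlap. At an unadjusted p below 0.05, 2 of 9 (Atp6v0b and Atp6v0d1) were higher and 0 lower, against 3.97% and 4.52% of all genes. That count was 4 of 9 with a trended and robust prior, 3 with centred arrays, 1 without lymphoma_5783 or without lymphoma_7890 and 0 without the pairing, and Atp6v0d1 was no longer in it when lymphoma_5783, lymphoma_7890, lymphoma_9250 or lymphoma_4936 was left out. The background was 455 genes higher and 518 lower, and it was 882 and 294 after centring of each array and 601 and 440 after another quantile normalization. The 9 genes share their arrays and were chosen with earlier results of these data known, so these counts describe them and are no test.

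**Figure D1:**
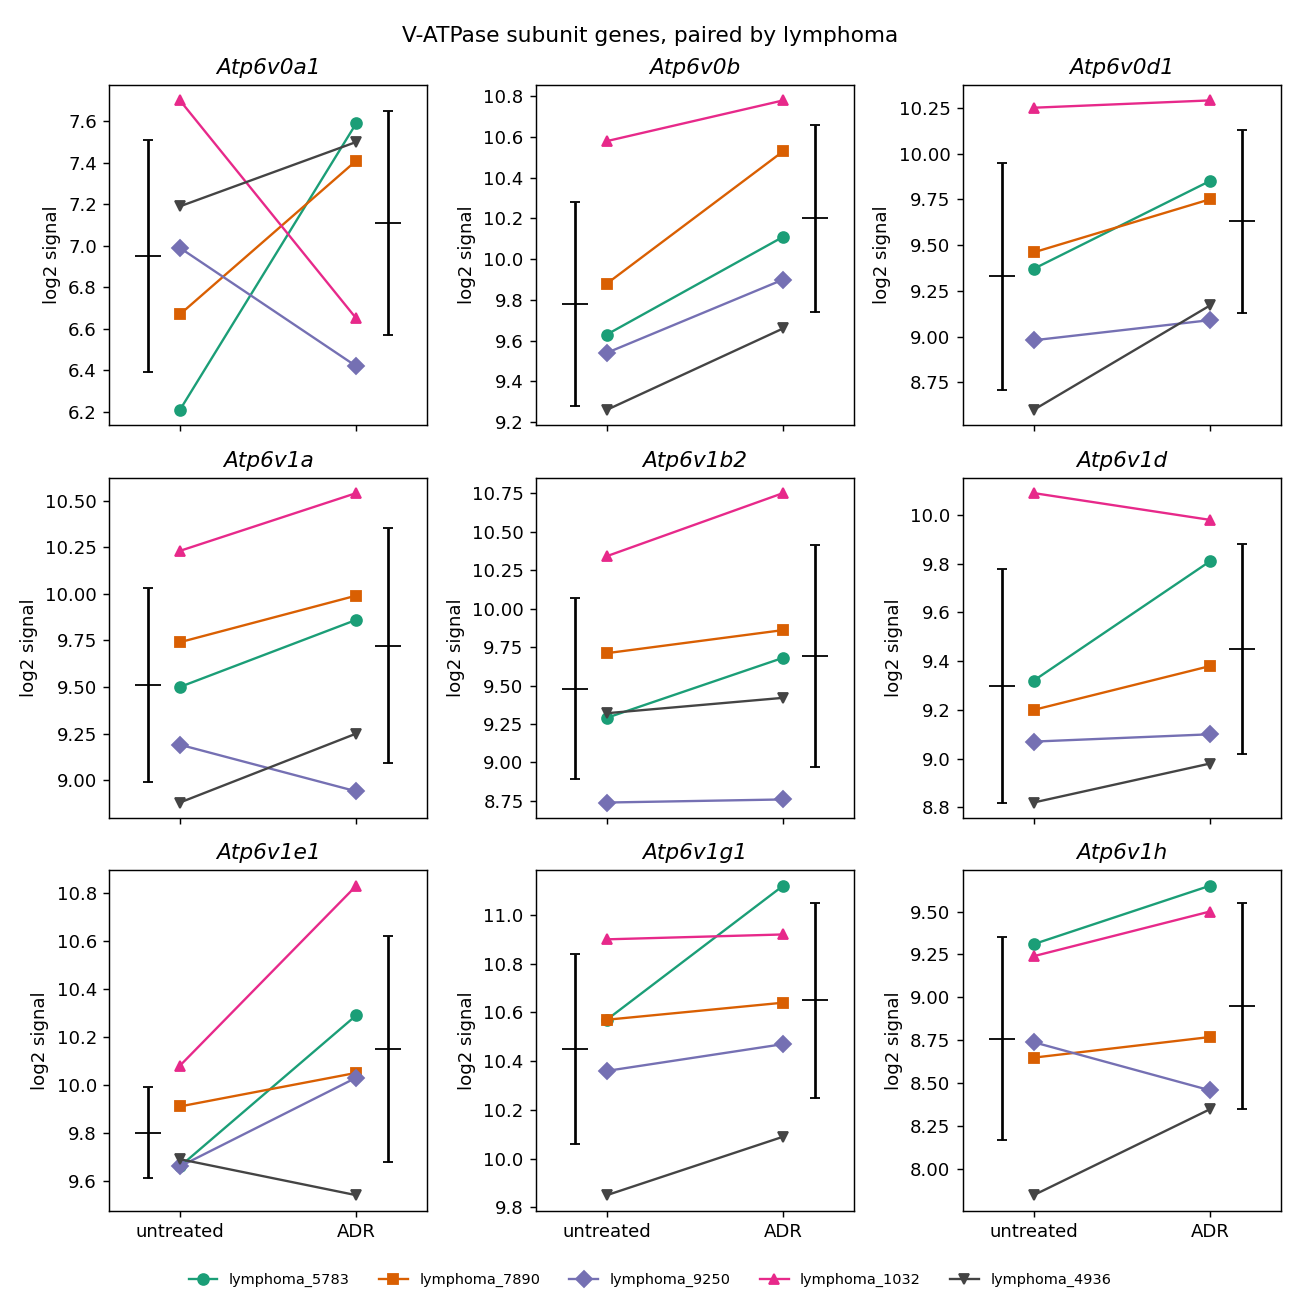
Log2 signal of each measured V-ATPase gene (vertical axis, its own scale per gene) in untreated and ADR cells, with 1 line per lymphoma; black bars are the mean and SD over 5 lymphomas. The lines of Atp6v0b all run upward, those of Atp6v0a1 cross, and lymphoma_1032 has the highest untreated signal in 8 of the 9 genes.

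Among the V0 genes, Atp6v0b encodes c'', a proteolipid of the membrane ring that carries protons. Its untreated signals were 9.63 for lymphoma_5783, 9.88 for lymphoma_7890, 9.54 for lymphoma_9250, 10.58 for lymphoma_1032 and 9.26 for lymphoma_4936, and its ADR signals were 10.11, 10.53, 9.90, 10.78 and 9.66 in the same order. The signal was higher with ADR in each lymphoma, and the groups still overlapped, with a range of 1.32 among the untreated lymphomas. The mean change was 0.42 ± 0.16 (SD, n = 5), a 1.34-fold difference, with a 95% interval of 0.16 to 0.68 and a limma adjusted p of 0.565 (unadjusted p = 0.00633 in the same fit). Of its other probe sets, 1 gave a change of 0.46 ± 0.30 and 1 gave -0.02 ± 0.24, so the probe sets of this gene disagreed.

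Atp6v0d1 encodes d1, the subunit that joins the ring to the central stalk. Its untreated signals were 9.37 for lymphoma_5783, 9.46 for lymphoma_7890, 8.98 for lymphoma_9250, 10.25 for lymphoma_1032 and 8.60 for lymphoma_4936, and the ADR signals were 9.85, 9.75, 9.09, 10.29 and 9.17. All 5 lymphomas were higher with ADR, lymphoma_1032 by 0.04 and lymphoma_4936 by 0.57, and the groups overlapped. The mean change was 0.30 ± 0.23 (SD, n = 5), with a 95% interval of 0.01 to 0.59 and a limma adjusted p of 0.577. It was the only measured member with a single probe set.

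Atp6v0a1 encodes a1, an isoform of the large subunit that lines the proton path. It had the widest spread of the 9 genes, with changes of 1.38 for lymphoma_5783, 0.74 for lymphoma_7890, -0.57 for lymphoma_9250, -1.05 for lymphoma_1032 and 0.31 for lymphoma_4936. Untreated signals were 6.21, 6.67, 6.99, 7.70 and 7.19 in that order, and ADR signals were 7.59, 7.41, 6.42, 6.65 and 7.50. Thus lymphoma_5783, the lowest untreated, was the highest with ADR. The mean change of 0.16 ± 0.98 (SD, n = 5; limma adjusted p = 0.896, 95% interval -0.63 to 0.95) has no stable direction, and without lymphoma_5783 it was -0.14. It was 0.02 without lymphoma_7890, 0.35 without lymphoma_9250 and 0.47 without lymphoma_1032. Its other 3 probe sets gave mean changes of 0.34, -0.10 and -0.12.

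**Figure D2:**
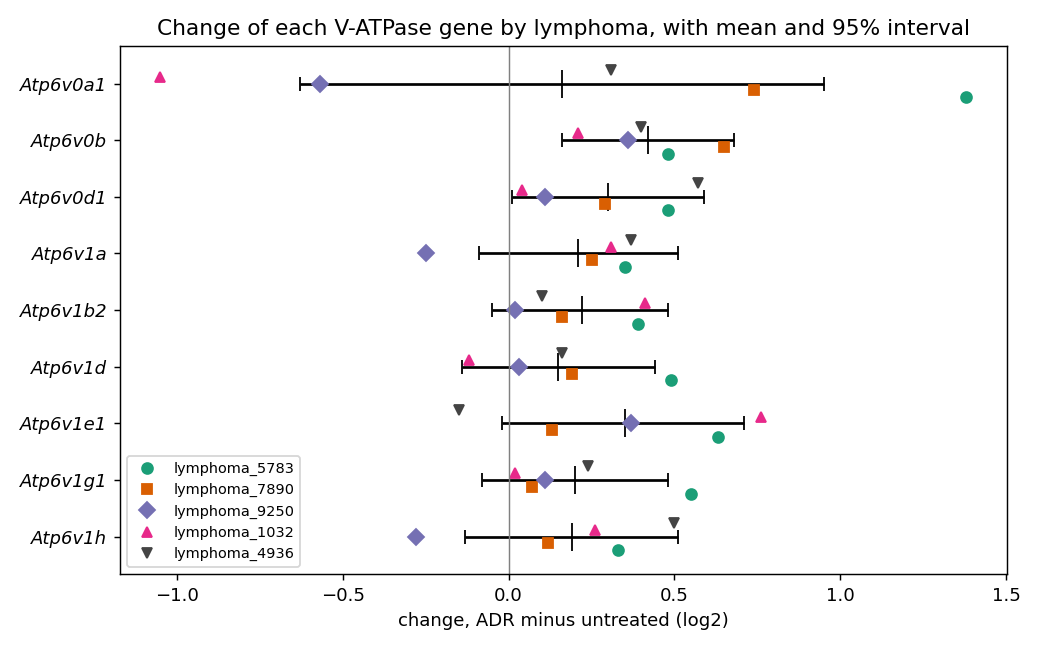
Change of each measured V-ATPase gene, ADR minus untreated on the log2 scale (horizontal axis), with 1 symbol per lymphoma and the mean with its 95% interval from the limma fit as a black bar. The intervals of Atp6v0b (0.16 to 0.68) and Atp6v0d1 (0.01 to 0.59) lie above 0 before adjustment, and Atp6v0a1 spreads from -1.05 to 1.38.

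In the V1 sector, Atp6v1a encodes the catalytic A subunit and Atp6v1b2 the B2 isoform of the subunit that alternates with it in the ATP-hydrolysing ring. Atp6v1a had untreated signals of 9.50 for lymphoma_5783, 9.74 for lymphoma_7890, 9.19 for lymphoma_9250, 10.23 for lymphoma_1032 and 8.88 for lymphoma_4936, and ADR signals of 9.86, 9.99, 8.94, 10.54 and 9.25. It was higher with ADR in 4 lymphomas by 0.25 to 0.37 and lower in lymphoma_9250 by 0.25. Its mean change was 0.21 ± 0.26 (SD, n = 5; limma adjusted p = 0.644), and a second probe set gave 0.24 ± 0.23. Atp6v1b2 had untreated signals of 9.29, 9.71, 8.74, 10.34 and 9.32 in the same order and ADR signals of 9.68, 9.86, 8.76, 10.75 and 9.42. All 5 lymphomas were higher, between 0.02 in lymphoma_9250 and 0.41 in lymphoma_1032, and the groups overlapped. Its mean change was 0.22 ± 0.17 (SD, n = 5; limma adjusted p = 0.603), and with the mean of all 4 of its probe sets, of which 2 lay below the median of the table on every array, it was 0.04.

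Atp6v1e1 and Atp6v1g1 encode the E1 and G1 subunits, which pair in the outer stalks that hold the ring still. Atp6v1e1 had untreated signals of 9.66 for lymphoma_5783, 9.91 for lymphoma_7890, 9.66 for lymphoma_9250, 10.08 for lymphoma_1032 and 9.69 for lymphoma_4936, the narrowest untreated range of the 9 genes (0.42). With ADR the signals were 10.29, 10.05, 10.03, 10.83 and 9.54. The changes of 0.63 for lymphoma_5783 and 0.76 for lymphoma_1032 were its largest, and lymphoma_4936 was lower by 0.15. The mean change was 0.35 ± 0.37 (SD, n = 5; limma adjusted p = 0.577), and its other 3 probe sets gave mean changes of 0.27, 0.35 and 0.10. These 3 were above the median of the table on 10, 3 and 0 of the 10 arrays. Atp6v1g1 had untreated signals of 10.57, 10.57, 10.36, 10.90 and 9.85 and ADR signals of 11.12, 10.64, 10.47, 10.92 and 10.09. It was higher in all 5 lymphomas, by 0.55 in lymphoma_5783 and by 0.02 to 0.24 in the others. Its mean change was 0.20 ± 0.21 (SD, n = 5; limma adjusted p = 0.644), 0.11 without lymphoma_5783, and 0.03 ± 0.21 on its next brightest probe set.

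Atp6v1d encodes the D subunit, the rotating shaft, and Atp6v1h the H subunit, which couples the sectors and holds detached V1 inactive. Atp6v1d had untreated signals of 9.32 for lymphoma_5783, 9.20 for lymphoma_7890, 9.07 for lymphoma_9250, 10.09 for lymphoma_1032 and 8.82 for lymphoma_4936, and ADR signals of 9.81, 9.38, 9.10, 9.98 and 8.98. Only lymphoma_5783 differed by more than 0.19, with a change of 0.49, and lymphoma_1032 was lower by 0.12. The mean change was 0.15 ± 0.23 (SD, n = 5; limma adjusted p = 0.716) and 0.06 without lymphoma_5783, and its other 2 probe sets gave 0.16 and 0.14. Atp6v1h had untreated signals of 9.31, 8.65, 8.74, 9.24 and 7.85 and ADR signals of 9.65, 8.77, 8.46, 9.50 and 8.35. It was higher in 4 lymphomas, most in lymphoma_4936 with 0.50, and lower in lymphoma_9250 by 0.28. Its mean change was 0.19 ± 0.29 (SD, n = 5; limma adjusted p = 0.685), 0.30 without lymphoma_9250 and 0.11 without lymphoma_4936. The other probe sets of Atp6v1h, above the median of the table on 2 and 0 of the 10 arrays, gave 0.02 and -0.11.

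The range of the untreated signals exceeded the size of the mean change in 9 of 9 genes, as it did in 98.6% of all genes tested. This is therefore no trait of the V-ATPase genes, and a range and a mean of paired changes are unlike measures. Untreated signals were highest in lymphoma_1032 for 8 of the 9 genes, against 28.5% of all genes tested, and Atp6v1h, the other one, was highest in lymphoma_5783. They were lowest in lymphoma_4936 for 6 of the 9 genes, against 30.1% of all genes. The mean level of the 9 genes was 9.93 in untreated lymphoma_1032, 9.31 for lymphoma_7890, 9.21 for lymphoma_5783, 9.03 for lymphoma_9250 and 8.83 for lymphoma_4936. With ADR it was 10.03, 9.60, 9.77, 9.02 and 9.11 in that order. In the same order of lymphomas, the 18 macrophage markers had mean untreated levels of 6.88, 7.98, 6.79, 4.93 and 4.60. The 10 neutrophil markers had 5.83, 4.60, 4.50, 4.23 and 4.13, and the 7 T-cell markers 6.09, 4.80, 5.10, 4.34 and 4.41. Lymphoma_1032, highest in V-ATPase levels, was thus also highest in the mean of the neutrophil and T-cell markers. In the mean of the macrophage markers it was second to lymphoma_7890. Single markers did not all share this. Of the 5 T-cell markers that passed the filter, 3 were highest in untreated lymphoma_1032: Cd5 at 11.26, Cd28 at 7.35 and Cd3e at 5.54. Cd3d, Cd3g, Cd4 and Cd8a were not highest there, at 4.50, 3.54, 5.24 and 5.21. The 3 neutrophil markers that passed the filter, Lcn2, Mmp8 and Mmp9, were all highest in untreated lymphoma_1032, at 12.76, 7.09 and 7.74. S100a8, which did not pass it, was also highest there, at 9.08. S100a9 and Mpo were not highest there, at 2.91 and 3.42, but both were below the median of the table on every array. On every array, 4 of the 10 neutrophil markers, 1 of the 7 T-cell markers and 2 of the 18 macrophage markers were below the median of the table. The part of other cells in the V-ATPase levels was not tested. With 1 untreated array per lymphoma, these differences have no replicate check.

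By lymphoma, the median change of the 9 genes was 0.48 in lymphoma_5783, where 9 of 9 were higher with ADR, and 0.19 in lymphoma_7890, also with 9 of 9. It was 0.31 for lymphoma_4936 with 8 of 9 higher, 0.21 for lymphoma_1032 with 7 of 9 and 0.03 for lymphoma_9250 with 6 of 9. The medians over all genes in these pairs were 0.04, -0.01, 0.06, -0.17 and -0.02. Of the 11472 genes tested, 6157, 5558, 6472, 3947 and 5397 were higher with ADR in the same order of lymphomas. The median of the 3 V0 genes was 0.30 and that of the 6 V1 genes 0.20.

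In the same pairs, the 18 macrophage markers had mean changes of 0.24 for lymphoma_5783, -0.04 for lymphoma_7890, -0.09 for lymphoma_9250, 0.58 for lymphoma_1032 and 0.12 for lymphoma_4936. The markers did not move together in lymphoma_5783, where 12 were higher and 6 lower with ADR. Mpeg1 changed there by 2.08 and Lyz2 by 2.10, but Mrc1 by -2.94, C1qa by -2.91, C1qb by -2.40 and C1qc by -1.30, and these last 4 did not pass the filter. The 12 markers that passed it had mean changes of 1.12 for lymphoma_5783 and 1.03 for lymphoma_1032. Over all 18 markers the mean level ranged from 4.60 to 7.98 on the untreated and from 4.71 to 7.94 on the ADR arrays, and Cd163 and Mertk were never above the median of the table. The 16 fibroblast markers had a mean change of 0.44 for lymphoma_5783 and 0.33 for lymphoma_1032, and the other 3 lymphomas ranged from 0.0 to 0.06. In lymphoma_5783, 12 were higher and 4 lower. Acta2 changed there by 1.65, Col1a2 by 1.38 and Fn1 by 1.36, but Col3a1 by -1.83 and Postn by -1.67. Col3a1 and Postn did not pass the filter. Of the 10 fibroblast markers that passed it, 3 were higher in all 5 lymphomas, against 4.67% of all genes tested. These were Fn1, Lox and Acta2, with mean changes of 0.66, 0.68 and 0.71. The collagen gene Col1a1 was lower in all 5 lymphomas, with a mean of -0.43, and 4.82% of all genes were lower in all 5. The 10 neutrophil markers changed by a mean of 0.94 in lymphoma_1032, where 9 of 10 were higher, by 0.28 in lymphoma_5783 and by -0.11 to 0.06 in the others. The 10 B-cell markers had mean changes of 0.8 for lymphoma_5783, 0.48 for lymphoma_7890, 0.47 for lymphoma_9250, -0.18 for lymphoma_1032 and -0.5 for lymphoma_4936. In lymphoma_5783, 6 of them were higher and 4 lower. Igll1 changed there by 3.93, Vpreb1, which did not pass the filter, by 3.50 and Rag1 by 1.45. Cd79a, Pax5, Ebf1 and Cd22 changed by -0.10, -0.46, -0.51 and -0.30, and the median of the 9 markers that passed was 0.04. Rag1 changed by 2.42 in lymphoma_7890 and by -2.21 in lymphoma_4936. The 7 T-cell markers had mean changes of 0.28 for lymphoma_5783, -0.16 for lymphoma_7890, -0.16 for lymphoma_9250, -0.57 for lymphoma_1032 and -0.04 for lymphoma_4936. The part of macrophage, fibroblast, neutrophil, B-cell or T-cell RNA in the V-ATPase changes was not tested. Without lymphoma_5783 and lymphoma_1032, an omission chosen after the values were seen, the mean change was above 0 in 9 of 9 V-ATPase genes. Their median was 0.12, below the 0.21 of all 5, and that of all genes tested was 0.0 in this setting. Macrophage markers also moved in the lymphomas that were kept. In lymphoma_4936, 10 were higher and 8 lower, with Mpeg1 at 1.14 and Marco at -0.65. The omission therefore does not separate cell types. In those 3 lymphomas Atp6v0b had a mean change of 0.47 and Atp6v0d1 of 0.32, as large as in all 5, while Atp6v1e1 had 0.12 instead of 0.35, Atp6v1b2 0.09 instead of 0.22 and Atp6v1a 0.12 instead of 0.21.

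Of 15 genes on a list of the remaining subunits and accessory proteins, 14 had a probe set and 8 passed the filter, for which 5 or more of the 10 arrays had to exceed the median signal of the table, 4.43. This median is a filter and no measured detection limit, and probe sets differ in how brightly they report a transcript. Atp6v0a4, Atp6v0e2, Atp6v1b1 and Atp6v1c2, isoforms known from kidney or other specialised epithelia or from neurons, were below that median on every array. Atp6v0d2, known from macrophages and osteoclasts, was above it only in untreated lymphoma_5783, at 4.83, where the ADR signal was 3.24. Atp6v1g2, a neuronal isoform, was above it on 1 array as well. For the subunits a, d, e, B, C, E and G, at least 1 widely expressed isoform was above the median on all 10 arrays.

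**Figure D3:**
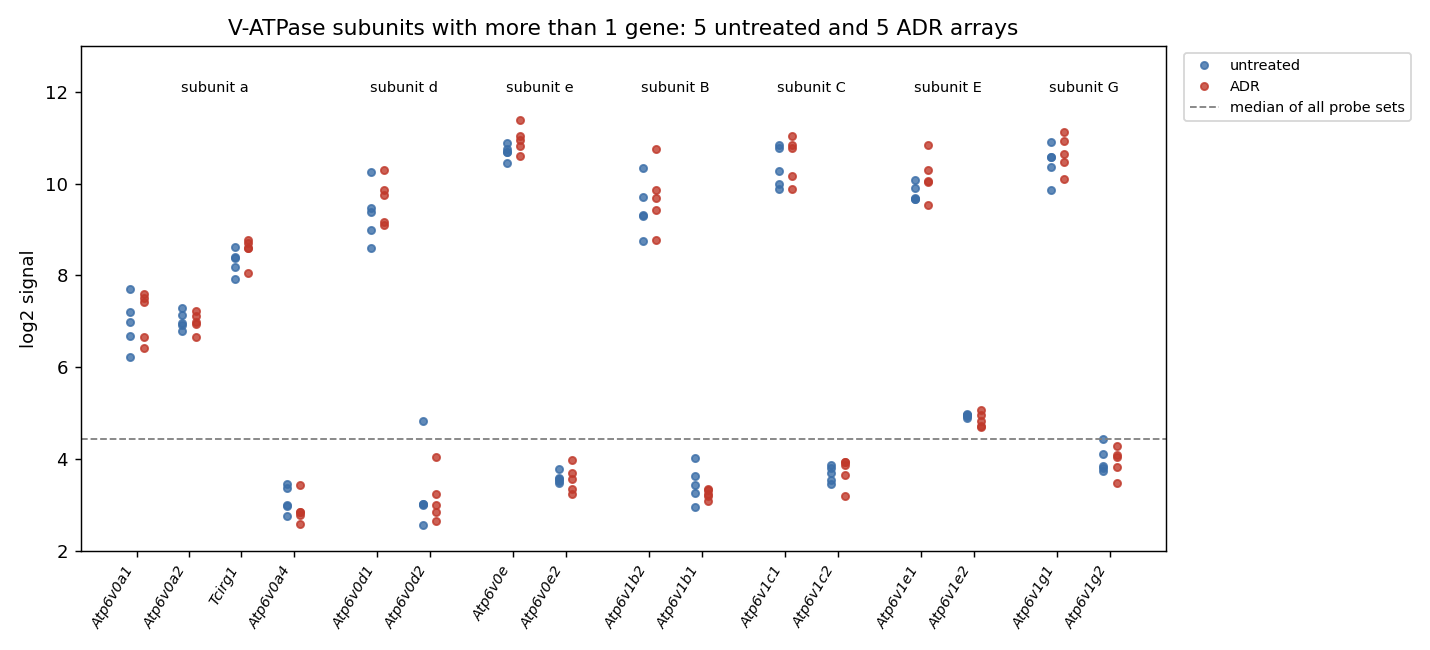
Log2 signals (vertical axis) of the genes that encode the same V-ATPase subunit, with 5 untreated (blue) and 5 ADR (red) arrays each and the median of all probe sets, 4.43, as a dashed line. Signals of different genes are not on a common scale; the figure shows which genes lie above or below the line, such as Atp6v0d2 with 1 array above it.

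Of the 8 tested genes of that list, 6 had a mean change above 0, with a list median of 0.21, and 0 rose or fell at an adjusted p below 0.05 in limma. Over all genes tested, 44.8% had a mean change above 0, 0.0% passed in either direction and 4.67% were higher in all 5 lymphomas. Atp6ap1, an accessory subunit that aids assembly of V0, was higher in all 5 lymphomas, with changes of 0.41 for lymphoma_5783, 0.38 for lymphoma_7890, 0.50 for lymphoma_9250, 0.35 for lymphoma_1032 and 0.20 for lymphoma_4936. Its mean change of 0.37 ± 0.11 (SD, n = 5) had a limma adjusted p of 0.565. Atp6v0e, the small e1 subunit, was also higher in all 5, by 0.12 to 0.49, with a mean change of 0.26 ± 0.15 and an adjusted p of 0.577. Atp6ap2, the accessory protein also known as the prorenin receptor, had a mean change of 0.23 ± 0.31, Tcirg1, the a3 isoform of lysosomes and osteoclasts, of 0.24 ± 0.32, Atp6v1c1 of 0.19 ± 0.24 and Atp6v1f of 0.10 ± 0.13. Atp6v0a2, the a2 isoform of Golgi and endosomes, had -0.03 ± 0.19 and Atp6v1e2, a testis isoform with signals close to the median of the table, -0.09 ± 0.14.

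Among 10 tested genes for assembly and regulation of the pump, 8 had a mean change above 0, with a median of 0.18, and 0 passed in either direction. For this list and the next, the shares over all genes tested were 44.8% above 0, 0.0% past the threshold and 4.67% higher in all 5 lymphomas. Tmem199, a factor for V-ATPase assembly in the Golgi, had a higher signal in each of the 5 lymphomas and a mean change of 0.30 ± 0.18 (SD, n = 5; limma adjusted p = 0.565). Rogdi, a partner of the RAVE-like complex that rejoins V1 and V0, was higher in all 5 with 0.24 ± 0.16 (adjusted p = 0.579). Of 10 tested genes for lysosomal ion transport, 8 had a mean change above 0, with a median of 0.14, and 0 passed. Mcoln1, a calcium channel of the lysosome, had 0.35 ± 0.27 and Clcn7, the lysosomal chloride-proton exchanger, 0.32 ± 0.24, both higher in all 5 lymphomas (limma adjusted p = 0.565 and 0.569).

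The Ragulator and Rag GTPase genes, which link the V-ATPase to mTORC1, and the genes of the TFEB family gave 15 tested members. A mean change above 0 was found in 12 of them, against 44.8% of all genes tested. The list median was 0.12, and 0 passed the threshold, against 0.0% of all genes. The 2 smallest p-values lay in opposite directions. Rragd, a Rag GTPase, was lower in 4 of 5 lymphomas (-0.71 ± 0.60, mean change and SD, n = 5), while Lamtor4, a Ragulator subunit, was higher in all 5 with 0.30 ± 0.14 (limma adjusted p = 0.565 for both). Of the TFEB family, added to the named genes after their values were seen, Tfeb had an untreated level of 6.81 ± 0.26 and a change of 0.12 ± 0.25, Tfe3 of 0.16 ± 0.27 and Mitf of 0.37 ± 0.69. Of 17 tested lysosomal enzymes and membrane proteins, 17 had a mean change above 0, against 44.8% of all genes tested. Their median was 0.30, and 0 passed, against 0.0% of all genes. In all 5 lymphomas 7 of the 17 were higher, against 4.67% of all genes. This list was also chosen with earlier results of these data known, so its counts are no test. The smallest p-values there belonged to the peptidase gene Tpp1 and to Grn, which encodes progranulin. The mean difference was 0.65 ± 0.23 for Tpp1 and 0.50 ± 0.18 for Grn (SD, n = 5). Both were higher in all 5 lymphomas (limma adjusted p = 0.565 for both).

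**Figure D4:**
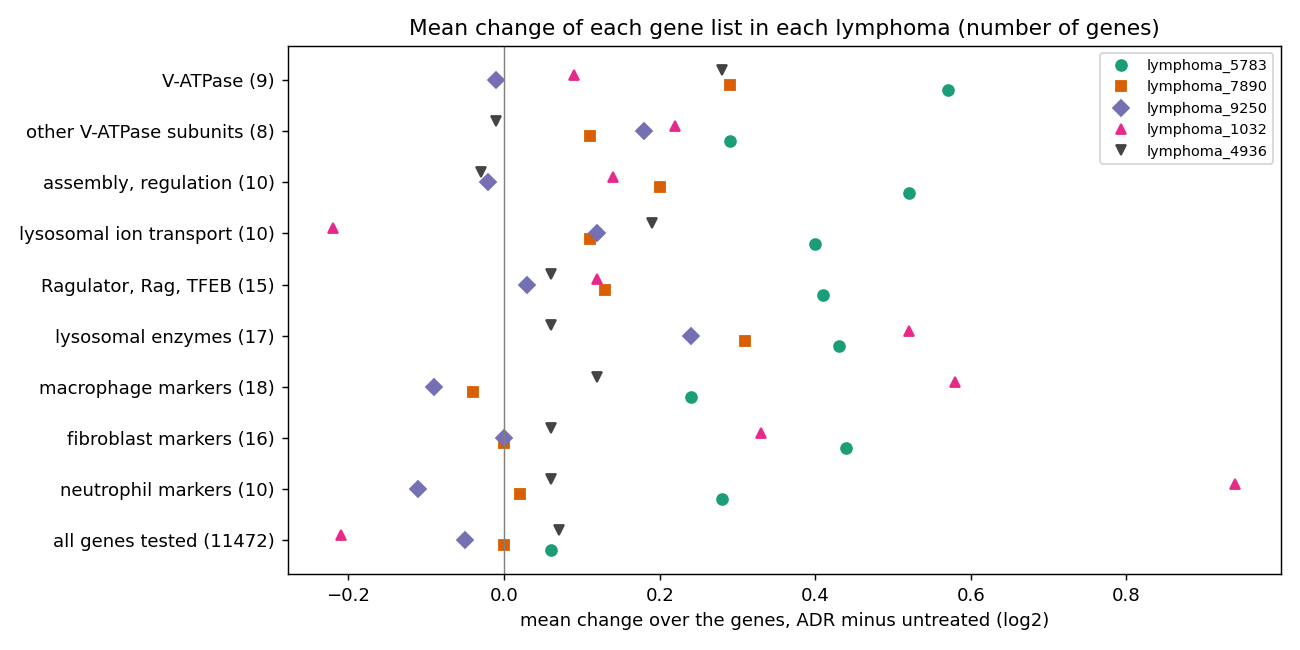
Mean change over the genes of each list, ADR minus untreated on the log2 scale (horizontal axis), with 1 symbol per lymphoma and the number of genes in brackets; the marker lists are plotted over all markers with a probe set. The V-ATPase genes are highest for lymphoma_5783 (0.57) and near 0 for lymphoma_9250 (-0.01), and the macrophage markers stand at 0.24 and 0.58 for lymphoma_5783 and lymphoma_1032, with members that moved in opposite directions in lymphoma_5783.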

How the data were processed

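The values are log2 signals of probe sets as deposited by the authors; the submitters' processing notes name RMA and Partek. No source used here gives versions, settings or the log base, which was taken as 2 from the range of the values. RMA summarises probes without mismatch correction and compresses small changes of dim probes. Of 45101 probe sets, 64 were controls, 34945 had 1 gene symbol, 932 several and 9160 none, and 34741 of the named ones matched RefSeq gene IDs. The 34945 probe sets with 1 symbol covered 18193 genes.

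The probe set with the highest mean stood for its gene. A gene was tested if 5 or more of 10 arrays exceeded the median of the table, 4.43, and 11472 genes did. The paired model of limma 3.58.1 (R 4.3.3; lmFit, eBayes) had 1 term per lymphoma and 1 for ADR, two-sided, with Benjamini-Hochberg adjustment and a threshold of 0.05. Same-numbered arrays came from the same lymphoma per the labels, and the 2 arrays of a pair deviated together from their groups, with correlations of 0.515 to 0.791 across genes. With 5 pairs, the number of arrays limits the precision. On simulated data with 11472 genes and the observed spread, the model recovered 12% of 50 genes that carried a log2 change of 0.5 and 64% of 50 that carried a change of 1. Changes of 2 and 3 were also given to 50 genes each, and the noise was drawn independently per gene. Both can raise these shares above those in the real data. No change below 0.5 was simulated, and the mean changes of the members were all smaller than that. Named were all members, all other subunits with a probe set, and in other lists the 2 genes with the smallest p. The members and lists were chosen with earlier results of these data known. Python 3.11.15, pandas 2.3.3 and matplotlib 3.10.9 were used. Alternatives were no block, 2 other filters, the mean of all probe sets, 2 scalings, another prior, array weights and omission of lymphomas.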

Additional observations from a re-analysis of the deposited data

Results flagged for a closer look

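Of 51 groups of 5 values (untreated levels, ADR levels and changes of the 9 members and the 8 other tested subunits), 2 held a value far from the rest of its group, where chance gives about 1 in 20. The change of Atp6v1a in lymphoma_9250, -0.25, lay apart from the next lowest, 0.25. The ADR level of Tcirg1 in lymphoma_4936, 8.04, lay apart from the next lowest, 8.59.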

How the results depend on the processing

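Under the 14 alternatives, 0 genes passed in either direction, 8 or 9 of the 9 members had a mean change above 0, and the median change of the members lay between 0.12 and 0.32. Of 126 member changes under the alternatives 125 were above 0; that of Atp6v0a1 was -0.14 without lymphoma_5783 and 0.47 without lymphoma_1032. The adjusted p of Atp6v0b ranged from 0.281 to 1. Without the lymphoma block the members' median was 0.21 with 9 of 9 higher, and 62 genes were higher and 200 lower at an unadjusted p below 0.05, with 0 of them members, against 455 and 518 with the pairing; the block changed no adjusted call. Those counts were 214 and 337 without lymphoma_5783, 551 and 289 without lymphoma_1032 and 493 and 953 without lymphoma_4936. Centring each array moved the median change of all genes by 0.081 and gave the members a median of 0.29. With the mean of all probe sets it was 0.15, with Atp6v1h at 0.04 instead of 0.19. The omission of lymphoma_5783 and lymphoma_1032 together was chosen after seeing the data and gave 0.12. Leaving out 1 lymphoma at a time gave medians from 0.17 to 0.32. In simulated data with 5 pairs and the settings given above, 12% of changes of 0.5 were recovered, and no smaller change was simulated.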

Other observations

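Outside the gene lists, the 5 tested genes whose pattern over the 10 arrays lay nearest to the mean pattern of the 9 V-ATPase genes were Rtn4, Bnip2, Secisbp2l, Fnbp1 and Dynlrb1. Likeness was the root mean square distance between levels centred per gene. The distance was 0.111 for Rtn4, 0.132 for Bnip2, 0.137 for Secisbp2l, 0.138 for Fnbp1 and 0.143 for Dynlrb1, against a median of 0.553 over 11360 genes and of 0.192 among the V-ATPase genes themselves, where Atp6v0a1 was farthest at 0.534. Rtn4, which encodes the reticulon Nogo of the endoplasmic reticulum, had an untreated level of 10.94 and a change of 0.25 ± 0.35 (SD, n = 5; limma adjusted p = 0.643). Dynlrb1, a dynein light chain, had 9.79 and a change of 0.08 ± 0.11. The points share arrays and lymphomas, and differences between lymphomas enter the distance as well as those between conditions. The mean level of the 9 genes ranged from 8.83 to 9.93 over the untreated lymphomas, while their mean change with ADR was 0.24. The V-ATPase genes also form the mean to which their own distances were taken.

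Fnip2, a partner of folliculin in lysosomal nutrient signalling that was noticed after its values were seen, had the widest changes of the Ragulator and TFEB list. Its change was 2.72 for lymphoma_5783, 0.08 for lymphoma_7890, -0.48 for lymphoma_9250, 1.73 for lymphoma_1032 and 1.47 for lymphoma_4936, a mean of 1.10 ± 1.29 (SD, n = 5; limma adjusted p = 0.571). Its untreated level was 9.03 in lymphoma_7890 and between 4.65 and 6.14 in the other lymphomas.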
